A study of Mus musculus with 9 samples.

Results

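The proteasome genes were taken by name. They comprised every mouse gene whose symbol starts with Psm, a letter from a to g and a digit, apart from the interferon-inducible catalytic subunits Psmb8, Psmb9 and Psmb10. The rule found 47 of the 19938 genes with a probe set of their own. Of these, 45 encode known proteasome subunits, activators or assembly factors. The other 2, Psmc3ip and Psme3ip1, are named after proteins that bind a proteasome component and are not subunits themselves. Expression was measured in liver of male C57BL/6J mice on Affymetrix Mouse Gene 1.0 ST arrays, one array for each of 9 pools of RNA from 5 mice. All mice were first adapted to LF-NP, a diet low in fat (10% of energy) with a normal protein content (15% of energy). Pools were made after 0 weeks on the test diets (LF-NP only, age 12 weeks), after 1 week (age 13 weeks) and after 12 weeks (labelled as age 22 weeks, which is less than the age at 0 weeks plus the time on the diet) on HF-HP, HF-NP, LF-HP or LF-NP. High fat (HF) diets gave 35% of energy as fat and high protein (HP) diets 50% as protein. HP diets thus necessarily held less carbohydrate than normal protein (NP) diets of the same fat content. HF diets likewise held less carbohydrate than low fat (LF) diets of the same protein content. Mice were killed after a calibrated meal. Each diet and week was represented by 1 pool, which averages its mice and hides the spread between them.

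The proteasome is the protease that degrades proteins tagged with ubiquitin. Its barrel-shaped 20S core is built of outer rings of alpha subunits (Psma), which gate the entrance, and inner rings of beta subunits (Psmb), of which Psmb5, Psmb6 and Psmb7 carry the proteolytic sites. The 19S regulator caps the core: its base holds the ATPases (Psmc) that unfold substrates, and its lid (most Psmd) holds the deubiquitinase Psmd14. In liver, proteasomes contribute to the turnover of cellular proteins beside autophagy, and their subunit genes are known to be induced together by the transcription factor Nfe2l1 when proteasome activity is insufficient.

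The window around the annotated start of transcription (250 bases before to 50 after, RefSeq, GRCm38.p6) was matched for 39 of the 47 genes. Because these genes are known to be expressed together, the windows were searched on both strands for 4 short motifs. The core recognised by ETS factors, CCGGAA, was found in 22 of the 39 genes (56.4%), against 16.7% of all 27025 genes with a window. The GC box GGGCGG occurred in 59% of the 39 genes and in 38.2% of all genes. CCAAT occurred in 38.5% and 41.1%, and the antioxidant response element core TGACNNNGC in 15.4% and 14%, of the same sets. Shares over genes of similar signal were not taken, so an excess is not shown to be particular to proteasome genes. A match of letters is a description and not a binding site. The 160 bases before the start are shown for 4 of the 9 genes described below whose 12 week pools all lay under their 1 week pools, with ETS cores on either strand in capitals. These 4 were picked because a core lies before their start. The windows of Psma7, Psmb3 and Psmg4 held no ETS core, the only one of Psmb4 lay after the start, and no window was matched for Psmb7. They are Psma5 (chr3:108256766-108256925, plus strand), Psma6 (chr12:55398665-55398824, plus strand, one of its windows, the other holding no ETS core), Psmc2 (chr5:21786587-21786746, plus strand, one of its windows) and Psmd12 (chr11:107479368-107479527, plus strand).
Psma5: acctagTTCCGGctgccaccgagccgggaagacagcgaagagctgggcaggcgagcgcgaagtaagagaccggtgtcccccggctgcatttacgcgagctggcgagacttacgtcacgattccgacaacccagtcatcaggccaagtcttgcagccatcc
Psma6: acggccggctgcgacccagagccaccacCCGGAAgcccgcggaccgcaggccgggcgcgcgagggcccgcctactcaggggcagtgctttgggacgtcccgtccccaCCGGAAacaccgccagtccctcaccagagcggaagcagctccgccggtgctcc
Psmc2: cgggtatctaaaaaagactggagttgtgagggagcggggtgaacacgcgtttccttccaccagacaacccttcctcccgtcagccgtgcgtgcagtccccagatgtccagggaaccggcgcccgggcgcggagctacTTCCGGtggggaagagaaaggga
Psmd12: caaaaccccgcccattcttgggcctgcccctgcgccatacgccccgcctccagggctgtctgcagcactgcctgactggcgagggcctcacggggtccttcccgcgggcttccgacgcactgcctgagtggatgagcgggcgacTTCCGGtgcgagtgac
Psma6 carried 2 cores in this stretch, and the others 1 each, at different distances from the start. The ETS core did not separate the genes by their difference between weeks. The median of 12 weeks minus 1 week was -0.12 both in the 22 genes with a core, of which 21 were below 0, and in the 17 genes without one, of which 14 were below 0.

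The values are log2 signals after robust multiarray averaging (RMA), so a difference of 1 would be a doubling. Levels of different genes are given as array signals only, since probes differ in brightness and signals do not order the amounts of transcript. Correlations between pools were 0.988 to 0.993 over all probe sets, and array medians over genes were 5.83 to 5.89. Hepatocyte markers were bright in every pool, with albumin (Alb) at 13.72 to 14.05. Of the 47 genes, 43 had a mean above the median gene mean of 5.85. The 4 others were Psma8 and Psmb11, known as subunits of testis and thymus, and Psmc3ip and Psmg3. The levels varied about as much as those of other genes. Their median SD over the 8 diet pools was 0.112, against 0.119 for all genes and 0.122 for genes above the median level. In 41 of the 47 genes the values spanned less than 0.5 over these pools, a share that was not taken over all genes. Psme3, an activator of the nuclear proteasome, was the steadiest of the 47 with an SD of 0.035. Psmd9, an assembly chaperone of the base, varied most, with an SD of 0.22 and a range of 0.729.

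Across the 8 diet pools most proteasome genes had lower levels after 12 weeks than after 1 week, while their differences by dietary protein were about evenly divided in sign, and no single gene passed the test in any comparison. Differences were estimated with limma from 1 additive fit of protein, fat and week to all 19938 genes, with Benjamini-Hochberg adjustment over all genes and a threshold of 0.05. After 12 weeks, 42 of the 47 genes had a lower mean than after 1 week, against 54.6% of all genes. The median difference of the 47 genes was -0.11, while that of all genes was -0.01 and that of genes above the median level -0.04. The differences were small, at most -0.29, and included genes of the core, the regulator and the assembly factors. Time on the diet coincides with age, and with whatever else set the pools of the 2 times apart, and these cannot be told apart. In whole liver, fewer cells of a type and less RNA per cell cannot be told apart either.

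**Figure D1:**
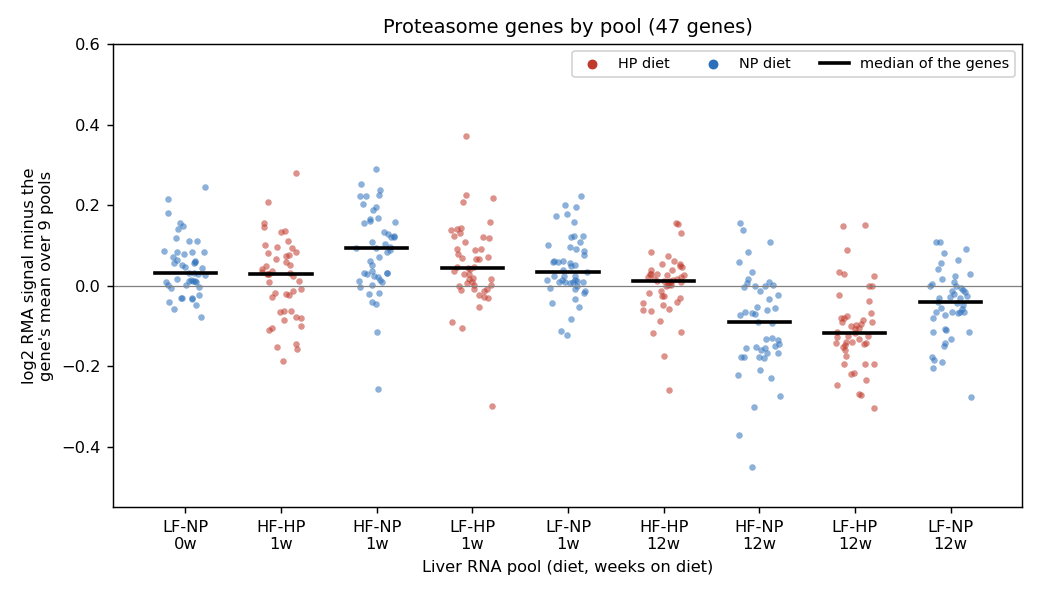
Log2 RMA signal of each of the 47 proteasome genes minus that gene's mean over the 9 pools (vertical axis), by pool (horizontal axis), with the median of the genes as a black bar. The medians were 0.03 to 0.09 in the pools of 0 and 1 week, 0.01 in HF-HP at 12 weeks, and -0.09, -0.12 and -0.04 in HF-NP, LF-HP and LF-NP at 12 weeks.

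None of the 47 genes passed the adjusted threshold for 12 weeks minus 1 week (smallest limma adjusted p = 0.532), where 0.00502% of all genes passed as higher and 0% as lower. At an unadjusted p below 0.05, 15 of the 47 (31.9%) were lower, against 5.3% of all genes, and none was higher, against 2.42%. Bright genes as a whole were more often lower. Among genes above the median level, 15 of 43 proteasome genes (34.9%) were lower at that p, against 9.27% of the 9969 genes, none was higher, against 2.2%, and 39 of 43 were below 0, against 66.5%. The count of 15 depended on single pools. It was 5 without the HF-NP pool of 12 weeks, 7 without the HF-NP pool of 1 week or the LF-HP pool of 12 weeks, 8 without the LF-HP or the LF-NP pool of 1 week, and 14 to 20 without each of the others. The median difference stayed between -0.14 and -0.09 whichever pool was left out.

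In 9 genes (19.1%) every 12 week pool lay below every 1 week pool, against 2.1% of all genes and 3.73% of genes above the median level, and in none the reverse, against 0.692%. They were Psma5, Psma6 and Psma7 of the alpha ring, Psmb3, Psmb4 and Psmb7 of the beta ring, the ATPase Psmc2, the lid subunit Psmd12 and the core assembly chaperone Psmg4. Values are given in the order HF-HP, HF-NP, LF-HP, LF-NP. Psma5 was at 7.43, 7.54, 7.41 and 7.68 after 12 weeks, against 7.73, 7.97, 7.75 and 7.77 after 1 week, a difference of -0.29 ± 0.07 (SE, limma adjusted p = 0.532). Psma7 was at 8.59, 8.26, 8.37 and 8.45 after 12 weeks, against 8.60, 8.76, 8.77 and 8.66 after 1 week, a difference of -0.28 ± 0.09 (SE, adjusted p = 0.571). Psmg4, a chaperone that pairs with Psmg3 to assemble the alpha ring, was at 6.83, 6.45, 6.68 and 6.83 after 12 weeks, against 6.93, 7.01, 7.05 and 6.88 after 1 week, a difference of -0.27 ± 0.09 (SE, adjusted p = 0.576). The HF-NP pools moved furthest for Psma7 and Psmg4, and the HF-HP pools of Psma7 were almost level. Psma6 was at 9.99, 9.81, 9.88 and 9.84 after 12 weeks, against 10.00, 10.27, 10.11 and 10.11 after 1 week. For Psmd12 the values were 8.78, 8.82, 8.79 and 8.75 after 12 weeks, against 8.92, 9.05, 9.02 and 8.95 after 1 week. Those of Psmc2 were 7.37, 7.36, 7.13 and 7.32 after 12 weeks, against 7.41, 7.50, 7.44 and 7.55 after 1 week. All 4 diets were lower in these 3 genes, each least so on HF-HP. The remaining 3 differed by -0.22 (Psmb7), -0.14 (Psmb4) and -0.08 (Psmb3), and the nearest 12 week and 1 week pools of Psmb3 both rounded to 11.80.

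**Figure D2:**
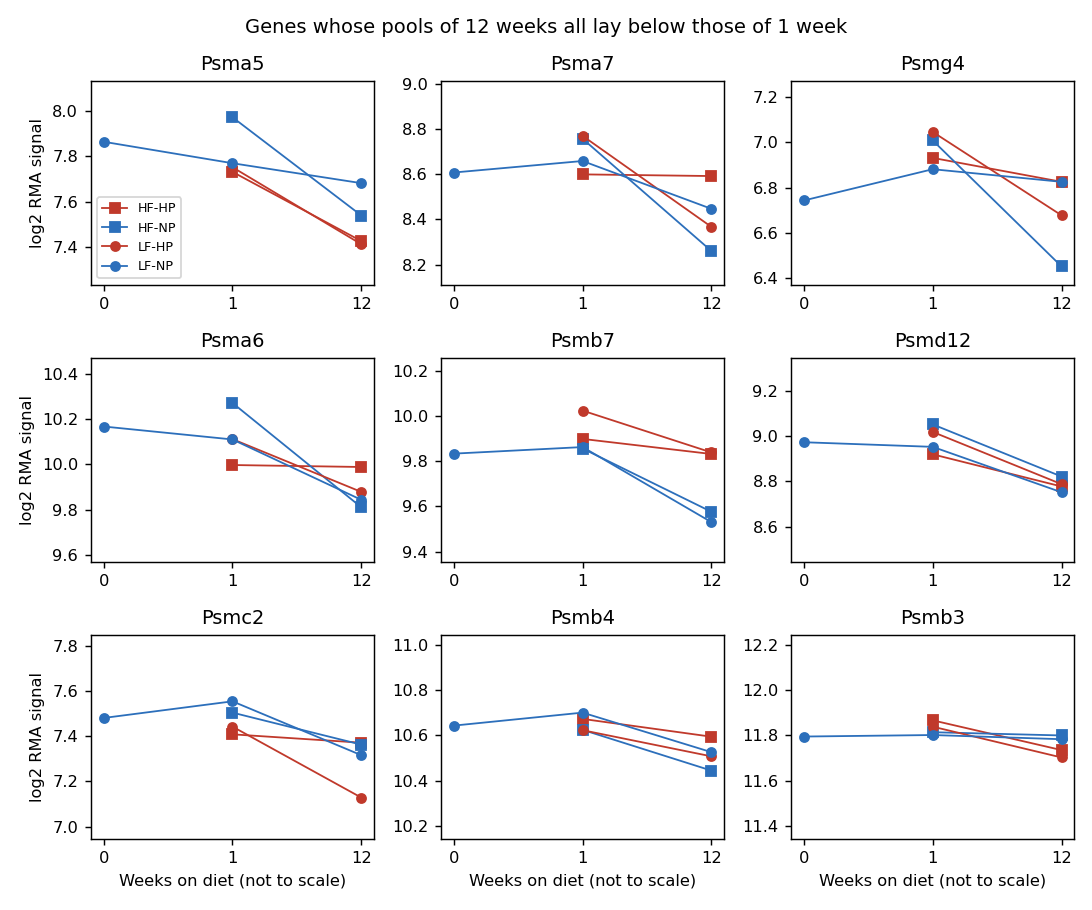
Log2 RMA signal (vertical axes, each spanning 0.9) of the 9 genes whose 12 week pools all lay below their 1 week pools, against weeks on the diet (horizontal axes). Each point is 1 pool, red for HP and blue for NP diets, squares for HF and circles for LF, and the LF-NP line starts at the pool of 0 weeks.

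Estimates for 12 weeks minus 1 week are given by role, with medians over each group. For comparison, 54.6% of all genes and 66.5% of those above the median level were below 0, with medians of -0.01 and -0.04. All 14 subunits of the alpha and beta rings were below 0, with medians of -0.21 for the alpha ring and -0.12 for the beta ring. So were all 6 ATPases of the base, with a median of -0.13, all 3 other base subunits, the scaffold proteins Psmd1 and Psmd2 and the ubiquitin receptor Psmd4, with a median of -0.16, and 7 of 8 lid subunits, with a median of -0.09. Psmd7, the lid partner of Psmd14, was the exception at 0.03, which turned to -0.005 without the LF-NP pool of 1 week. Assembly chaperones had a median of -0.07, and 6 of 7 were below 0. The other was Psmd5 at 0.06, which holds base ATPases during assembly. The activators and the regulator Psmf1 had a median of -0.002 over 5 genes, with Psme2 of the interferon-inducible PA28 cap at -0.25 (adjusted p = 0.564) and its partner Psme1 at 0.02. Psmb11, the thymus subunit, had the highest estimate, 0.13 (adjusted p = 0.67), at a signal below the median of all genes.

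**Figure D3:**
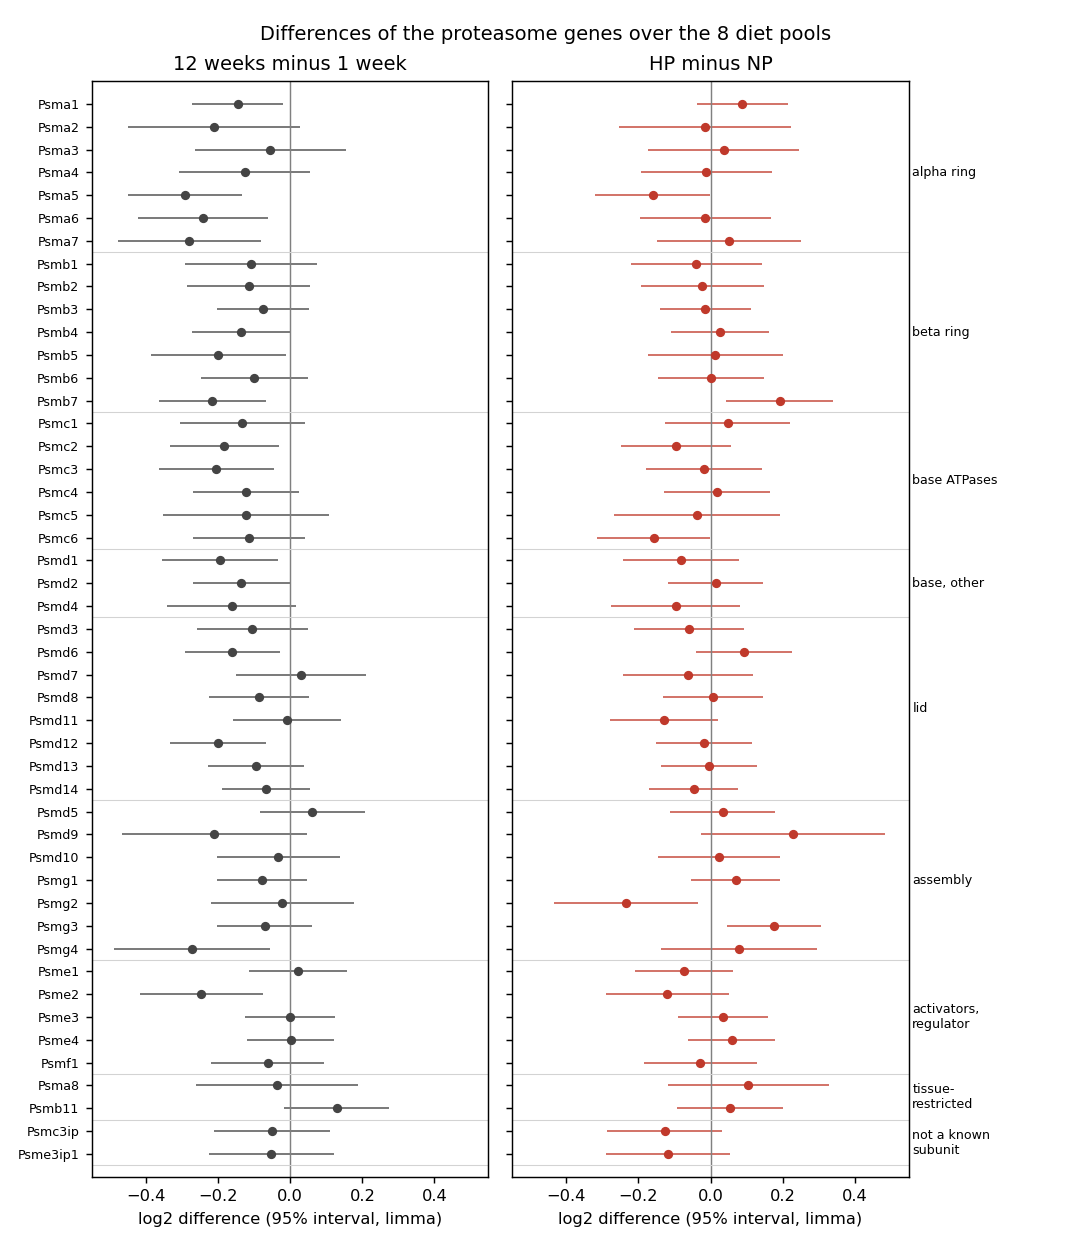
Log2 difference of each of the 47 genes (points) with its 95% interval from limma (lines), for 12 weeks minus 1 week on the left and HP minus NP on the right, grouped by role. On the left 42 points lie below 0, against 54.6% of all genes, and on the right 25, against 51.9%.

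Within single diets, with 1 pool at each time and hence no test, the median difference of 12 weeks minus 1 week was -0.01 on HF-HP, -0.19 on HF-NP, -0.16 on LF-HP and -0.08 on LF-NP. Genes above the median level had medians of 0.01, -0.08, -0.06 and -0.01 on the same diets. Of the 43 proteasome genes above the median level, 26 were below 0 on HF-HP, against 44.6% of genes above that level, and 39 on HF-NP, against 69.1%. LF-HP had 41 below 0, against 64%, and LF-NP 34, against 52.7%. A set of 22 of the 47 genes (46.8%) was below 0 on all 4 diets, against 8.85% of all genes. All 22 were above the median level, where they made up 51.2% of the 43, against 14.9% of such genes. Relative to the LF-NP pool of 0 weeks, the medians of the 1 week pools were -0.05 (HF-HP), 0.02 (HF-NP), 0.01 (LF-HP) and -0.003 (LF-NP), and those of the 12 week pools were -0.02, -0.13, -0.16 and -0.09. The 1 week medians lay on both sides of the start, and all 4 medians of 12 weeks lay below it, that of HF-HP least. The HF-HP pool of 12 weeks fitted the additive terms least well. Its limma array weight was 0.385, against 0.802 to 1.794 for the other diet pools. Whether diet or array set this pool apart was not tested.

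A list of 25 receptors, shuttle factors, chaperones and regulators had 16 genes with a value, and all 16 were below 0 for 12 weeks minus 1 week, with a median of -0.11, where 54.6% of all genes and 66.5% of those above the median level were below 0. None passed the adjusted threshold and 3 were lower at an unadjusted p below 0.05, against 5.3% of all genes and 9.27% of those above the median level. The list was chosen with earlier results of these data known. Sem1, the small lid subunit whose symbol lies outside the name rule, was at 7.66, 7.44, 7.48 and 7.42 after 12 weeks (HF-HP, HF-NP, LF-HP, LF-NP), against 7.84, 7.88, 8.05 and 7.86 after 1 week, a difference of -0.41 ± 0.07 (SE, limma adjusted p = 0.453). Nfe2l1, the transcription factor that induces subunit genes, differed by -0.26 ± 0.06 (SE, adjusted p = 0.499), with 9.01 to 9.15 after 12 weeks against 9.27 to 9.38 after 1 week. Neither gene's groups overlapped. The third, Vcp, the ATPase that extracts ubiquitinated proteins for degradation, was named after its value was seen and differed by -0.20 (adjusted p = 0.564). Pomp, which matures the core, differed by -0.14 (adjusted p = 0.707). Markers of other liver cells were mostly higher after 12 weeks, none past the adjusted threshold. All 6 Kupffer cell markers were above 0, with a median of 0.19, and 4 of 5 endothelial markers, with a median of 0.07. Above 0 were 45.4% of all genes and 33.5% of those above the median level. Adipocyte markers were divided, with 2 of 4 above 0 and a median of -0.003. The median deviation of the Kupffer cell list from its mean over the pools was -0.17 to 0.34 in the 12 week pools and -0.48 to 0.24 in the 1 week pools. The part of these cells in the differences of the proteasome genes was not tested.

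The study's main question was what dietary protein does in the liver, and no difference between HP and NP diets was resolved for any of the 47 genes. Over the 47 genes the median of HP minus NP was -0.01, with 22 above 0 (48.1% of all genes) and 25 below 0 (51.9% of all genes), and the median over all genes was -0.004. None passed the adjusted threshold (smallest adjusted p = 0.305), where 0.171% of all genes were higher and 0.271% lower. At an unadjusted p below 0.05, Psmb7 and Psmg3 were higher (4.59% of all genes) and Psmg2, Psma5 and Psmc6 lower (5.66% of all genes), shares of members near the background. The median half-width of the 95% interval was 0.16, and no interval reached beyond 0.484 in either direction. Among the 43 genes above the median level, 1 was higher (6.84% of such genes) and 3 lower (9.26%), and 19 lay above 0 (46.3%) and 24 below (53.7%). Leaving out HF-HP at 1 week turned the count of 2 higher into 1, and leaving out HF-NP at 12 weeks turned it into 3. The count of 3 lower became 0 when HF-NP at 1 week or LF-NP at 12 weeks was left out, and 1 when HF-HP at 1 week or either LF-HP pool was.

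Values for protein are given in the order HF 1 week, HF 12 weeks, LF 1 week, LF 12 weeks. Psmb7, which carries the trypsin-like site of the core, was at 9.90, 9.83, 10.02 and 9.84 in HP pools, against 9.86, 9.58, 9.86 and 9.53 in NP pools, a difference of 0.19 ± 0.06 (SE, limma adjusted p = 0.338). Psmd9 was at 7.86, 7.74, 7.70 and 7.45 in HP pools, against 7.56, 7.13, 7.59 and 7.55 in NP pools, a difference of 0.23 ± 0.11 (SE, adjusted p = 0.555). That of Psmd9 was 0.118 without HF-NP at 12 weeks, 0.453 in HF pools alone and 0.004 in LF pools alone. HP was higher than its matched NP pool in all 4 pairs for Psmb7 and in 3 of 4 for Psmd9, whose HF-NP pool of 12 weeks stood apart, and both genes' groups overlapped. Psmg3 differed by 0.18 (adjusted p = 0.305) at a signal of 4.72 to 5.05, below the median of all genes. The next in order were Psma8 (0.11, or 0.021 without LF-HP at 1 week), Psmd6 of the lid (0.09) and Psma1 of the alpha ring (0.09).

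At the other end, Psmg2, which pairs with Psmg1 in the first step of core assembly, was at 7.13, 7.03, 6.85 and 7.13 in HP pools, against 7.35, 7.15, 7.32 and 7.26 in NP pools, a difference of -0.23 ± 0.09 (SE, limma adjusted p = 0.395). The ATPase Psmc6 was at 8.59, 8.59, 8.60 and 8.31 in HP pools, against 8.84, 8.67, 8.61 and 8.61 in NP pools, a difference of -0.16 ± 0.07 (SE, adjusted p = 0.482). Psmd11, a lid subunit, was at 9.07, 9.11, 8.99 and 8.85 in HP pools, against 9.11, 9.16, 9.11 and 9.14 in NP pools, a difference of -0.13 ± 0.06 (SE, adjusted p = 0.578). In these 3 genes (6.38% of the 47) all HP pools lay below all NP pools, against 2.91% of all genes and, for the 43 genes above the median level, 5.22% of such genes. The margins were narrow: the highest HP pool of Psmc6 was at 8.60 and its lowest NP pool at 8.61, and those of Psmd11 both rounded to 9.11. No gene had all HP pools above all NP pools, against 1.88% of all genes. Psma5 differed by -0.16 (adjusted p = 0.482) with overlapping groups, followed by Psmc3ip (-0.13) and Psme2 (-0.12).

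The catalytic subunits were set beside the counterparts that the name rule left out. Each constitutive site has a counterpart that interferon induces, forming the immunoproteasome: Psmb9 replaces Psmb6, Psmb10 replaces Psmb7 and Psmb8 replaces Psmb5. Psmb5 was at 11.80, 11.60, 11.57 and 11.42 in HP pools, against 11.62, 11.42, 11.77 and 11.53 in NP pools, a difference of 0.01 ± 0.08 (SE, adjusted p = 0.98), and Psmb6 differed by 0.001 ± 0.063 (SE, adjusted p = 0.999). Psmb8 was at 6.92, 7.12, 7.23 and 7.13 in HP pools, against 7.34, 7.40, 7.46 and 7.62 in NP pools, a difference of -0.36 ± 0.07 (SE, adjusted p = 0.083). Psmb9 was at 7.73, 7.97, 7.83 and 7.92 in HP pools, against 8.12, 8.23, 8.18 and 8.18 in NP pools, a difference of -0.31 ± 0.06 (SE, adjusted p = 0.089). All HP pools of Psmb8 and Psmb9 lay below all NP pools of 1 and 12 weeks, and neither passed the threshold. The LF-NP pool of 0 weeks was at 7.27 for Psmb8 and at 7.94 for Psmb9, where the HF-HP pool of 12 weeks lay above it. Psmb10 was at 8.83, 8.83, 8.77 and 8.81 in HP pools, against 9.07, 8.58, 9.10 and 8.86 in NP pools, a difference of -0.09 ± 0.10 (SE, adjusted p = 0.838), with HP lower in 3 of 4 pairs. For 12 weeks minus 1 week, where the constitutive sites were lower, Psmb8 and Psmb9 differed by 0.08 and 0.11, and Psmb10 by -0.18. Of 21 listed interferon and antigen presentation genes 15 had a value, and 13 of these were below 0 for HP minus NP, with a median of -0.26, against 51.9% of all genes and 53.7% of those above the median level. At an unadjusted p below 0.05, 10 were lower, against 5.66% and 9.26%, and none passed the adjusted threshold. This list was chosen with earlier results of these data known, so its counts are a description only. Kupffer cell markers had lower means in HP pools for 5 of 6 genes, with a median of -0.17, but the direction differed by fat level. On LF diets the median deviation of that list was lower with HP (-0.48 against 0.002 at 1 week, -0.17 against 0.29 at 12 weeks). On HF diets it was higher with HP (0.24 against -0.08 at 1 week, 0.34 against 0.23 at 12 weeks). Lymphoid and myeloid markers had lower means in HP pools for 4 of 7 genes, with a median of -0.24, a count near the 51.9% of all genes. The part of these cells in the differences was not tested.

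**Figure D4:**
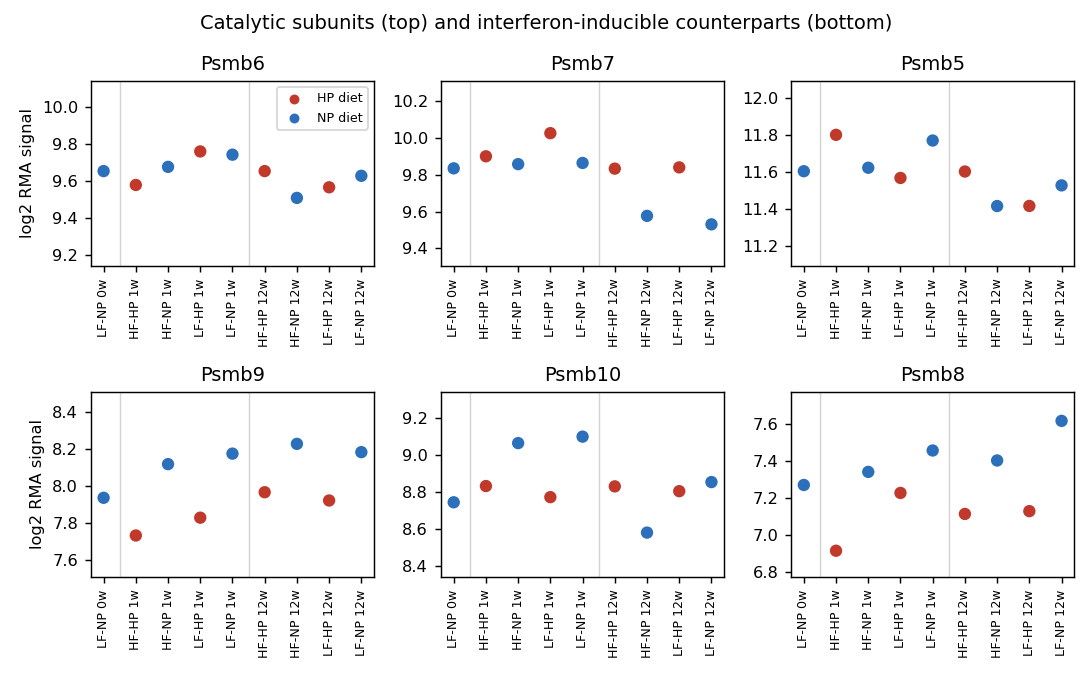
Log2 RMA signal (vertical axes, each spanning 1) of the constitutive catalytic subunits Psmb6, Psmb7 and Psmb5 above and their interferon-inducible counterparts Psmb9, Psmb10 and Psmb8 below, in the 9 pools (horizontal axes), red for HP and blue for NP diets. Grey lines separate 0, 1 and 12 weeks, and the HP pools of Psmb8 and Psmb9 lie below every NP pool of 1 and 12 weeks.

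The matched pairs of HP and NP pools, 1 array each, did not point one way. Among the 43 genes above the median level, 34 were above 0 on HF diets at 12 weeks, against 64.9% of genes above that level, and 28 were below 0 on HF diets at 1 week, against 53.5%. On LF diets 34 were below 0 at 12 weeks, against 65%, and 21 at 1 week, against 54.9%. Median differences of the 47 genes were -0.07 and 0.10 on HF diets and 0.001 and -0.08 on LF diets, at 1 and 12 weeks in each case. Genes above the median level shared these directions at 12 weeks, with medians of 0.08 on HF and -0.07 on LF diets.

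Whether the protein difference depended on fat or week was tested with interaction terms. For protein by fat, 30 of the 47 genes were above 0, against 56.6% of all genes, and for protein by week 34 were above and 13 below 0, against 50.1% and 49.9%. Of the 43 genes above the median level 29 were above 0 for protein by fat, against 69.2% of genes above that level, and 32 for protein by week, against 56.1%. In the protein by fat term, none of the 47 genes passed the adjusted threshold (smallest adjusted p = 0.687), and 0% of all genes did. At an unadjusted p below 0.05, 2 (4.26%) were higher, near the 4.79% of all genes, and none lower, against 2.23%. Among the 9969 genes above the median level 718 were higher at that p. The median of this term was 0.052 over the 47 genes, 0.031 over all genes and 0.085 over genes above the median level. Psmd9 had an HP minus NP difference larger by 0.45 ± 0.16 (SE, limma adjusted p = 0.701) on HF than on LF diets, with matched differences of 0.30 and 0.61 on HF and 0.11 and -0.10 on LF diets at 1 and 12 weeks. Psmb5, the chymotrypsin-like site, had one larger by 0.34 ± 0.11 (SE, adjusted p = 0.687), with matched differences of 0.18 and 0.19 on HF and -0.20 and -0.11 on LF diets. HP was thus higher in both HF pairs of both genes, and lower in both LF pairs of Psmb5. The base subunit Psmd1 followed at 0.21, and the lowest were Psma3 of the alpha ring (-0.24), Psmb11 (-0.20) and Psma8 (-0.19). Some of these depended on single pools: Psma3 was at -0.065 without HF-HP at 1 week and -0.416 without HF-HP at 12 weeks. Psma8 was at 0.001 without HF-NP at 12 weeks, and Psmd9 was at 0.303 without that pool. Whichever pool was left out, Psmb5 stayed at 0.307 to 0.372, Psmd1 at 0.142 to 0.269 and Psmb11 at -0.235 to -0.158. For protein by week, no gene passed either threshold (all adjusted p were 1), where 0% of all genes passed after adjustment and 1.46% were higher and 1.16% lower at an unadjusted p below 0.05. The highest were Psma2 (0.30), Psmc5 (0.25) and Psma6 (0.24) and the lowest Psmd7 (-0.22), Psma8 (-0.14) and Psmb3 (-0.12). All of these except Psmb3 varied with the pools used. Leaving out HF-HP at 12 weeks gave 0.091 for Psma2, leaving out HF-HP at 1 week gave 0.146 for Psma6, and leaving out HF-NP at 12 weeks gave 0.067 for Psmc5 and 0.062 for Psma8. Psmd7 was at -0.102 without LF-HP at 1 week. Psmb3 stayed at -0.124 to -0.111 whichever pool was left out, and was at -0.036 with the mean of its probe sets.

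No difference by dietary fat was resolved for any of the 47 genes. Over these, HF minus LF had a median of 0.02, with 33 above 0 and 14 below, against 50.4% and 49.6% of all genes. The median was -0.02 without HF-HP at 12 weeks and 0.055 without HF-NP at 12 weeks. Among the 43 genes above the median level 31 were above 0 and 12 below, against 56.2% and 43.8% of such genes. The 17 subunits of the 19S base and lid lay at 0.001 to 0.143, with a median of 0.04, none past an unadjusted p of 0.05, and 14 of the 17 were above 0 once each array was centred on its median, which left Psmc1, Psmc5 and Psmd3 below 0. The 16 other pathway genes lay at 0.004 to 0.177, with a median of 0.06, and 15 of them were above 0 after centring, where Sem1 was not. After centring 46.3% of all genes and 52% of those above the median level were above 0. None of the 47 passed the adjusted threshold (smallest adjusted p = 0.999), where 0% of all genes did. Values for fat are given in the order HP 1 week, HP 12 weeks, NP 1 week, NP 12 weeks. At an unadjusted p below 0.05 only Psma8 was lower, against 1.53% of all genes, at 3.90, 3.97, 3.80 and 4.04 in HF pools, against 4.43, 4.14, 4.18 and 4.0 in LF pools, a difference of -0.26 ± 0.10 (SE, limma adjusted p = 0.999). The count was 0 when any one of the 4 pools of 1 week was left out. No gene was higher, against 1.8%, and 2 were when LF-HP at 1 week was left out. No gene had all HF pools above all LF pools, against 0.341% of all genes, or below them, against 0.366%. The highest estimates were those of Psmc6 (0.14), Psmd7 (0.12) and Psmd5 (0.12), and after Psma8 the lowest were those of Psme3ip1 (-0.12) and Psmg3 (-0.11). Psmc6 was at 8.59, 8.59, 8.84 and 8.67 in HF pools, against 8.60, 8.31, 8.61 and 8.61 in LF pools, and the groups overlapped. Kupffer cell markers also had higher means on HF diets, 6 of 6 with a median of 0.28, but not at both protein levels. Among HP pools the median deviation of that list was 0.24 on HF against -0.48 on LF diets at 1 week, and 0.34 against -0.17 at 12 weeks. Among NP pools it was -0.08 against 0.002 at 1 week, and 0.23 against 0.29 at 12 weeks. The part of these cells was not tested.

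A probe set can also read near-identical copies of a gene. In all, 5 genes had more than 1 probe set, and the ones not used gave similar differences for 12 weeks minus 1 week: -0.33 beside -0.29 for Psma5, -0.09 beside -0.08 for Psmb3, -0.17 beside -0.13 for Psmc1, -0.14 beside -0.14 for Psmd2, and -0.04 and -0.11 beside -0.06 for Psma3. One further probe set was annotated to both Psme2 and Psme2b and was left out.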

How the data were processed

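The authors deposited log2 values per probe set after RMA normalisation, as the series matrix. The study's methods describe probes remapped to Entrez genes, whereas the deposited rows carry the array's own probe set numbers, so the remapping and the scanner values were not used here. Of 35556 probe sets, 21789 had 1 gene symbol in the platform annotation, 1621 several and 12146 none. Only the first kind was used, with the brightest per gene (19938 genes). Differences were estimated with limma 3.58.1 (R 4.3.3, lmFit and eBayes, 2-sided) over the 8 diet pools, with protein, fat and week as terms and 4 residual degrees of freedom. The pool of 0 weeks stayed out of the fit. With 1 pool per diet and week, p-values rest on the spread between pools of different diets and times. The script was tested on simulated data. Values were collected with pandas 2.3.3 and NumPy 2.4.6 under Python 3.11.15 and drawn with matplotlib 3.10.9. Named genes were the 6 highest and 6 lowest for HP minus NP, the 3 highest and 3 lowest for each other comparison, those whose HP and NP pools did not overlap, the catalytic subunits and their counterparts, the highest and lowest by level, Nfe2l1, Pomp and Sem1, and genes with a pool apart from the rest. Genes with no overlap between weeks were added after their values were seen. The genes and lists were chosen with earlier results of these data known.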

Additional observations from a re-analysis of the deposited data

Results flagged for a closer look

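The HP pools and the NP pools of each of the 47 genes and of Psmb8, Psmb9 and Psmb10 gave 100 sets of 4 pools. In 9 of them, none of the last 3 genes, 1 pool stood apart from the other 3 by Dixon's criterion, against 15.9% of such sets over all genes and 11% over genes above the median level. Chance alone flags about 1 in 20 sets of replicates, but the pools of a set differ in fat and week and are not replicates. Of the 9, 3 were low values in the LF-HP pool of 12 weeks: Psmc3 at 8.30, with the other HP pools at 8.52 to 8.56, Psmc6 at 8.31, with 8.59 to 8.60, and Psmd13 at 8.71, with 8.86 to 8.89. The HF-NP pool of 12 weeks was low for Psmb2 at 10.28, with the other NP pools at 10.51 to 10.56, and for Psmd9 at 7.13, with 7.55 to 7.59. The HF-NP pool of 1 week was high for Psmd13 at 8.97, with 8.78 to 8.80, and for Psmc3ip at 5.42, with 5.27 to 5.29. Psme1 was high in the LF-NP pool of 12 weeks at 9.19, with 9.09 to 9.10. Psmg3 was low in the HF-HP pool of 12 weeks at 4.86, with 5.04 to 5.05.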

How the results depend on the processing

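Each comparison kept 0 of the 47 genes past the adjusted threshold under every alternative run for it: a filter on dim genes, another prior variance, array weights, centring, the mean of probe sets, a threshold of 0.1, each matched comparison as a block, no covariates or 1 fat level or week alone for HP minus NP, and each pool left out in turn. No paired analysis by replicate number was possible because every group has 1 pool. The median of HP minus NP was -0.038 (LF pools alone) to 0.03 (12 week pools alone), and that of 12 weeks minus 1 week -0.124 to -0.114, or -0.142 to -0.088 with 1 pool left out. The count of genes lower after 12 weeks at an unadjusted p below 0.05 was 13 to 17 under the other settings. Of 602 single-gene values under other settings, 579 kept their sign and side of the threshold, 20 turned sign and 3 passed it. For HP minus NP, Psmb5 was -0.012 in 1 week pools, -0.157 in LF pools and -0.024 with array weights, and -0.031 to 0.067 with 1 pool left out (-0.03, -0.029, -0.031 and -0.028 without HF-HP 12 weeks, HF-HP 1 week, HF-NP 12 weeks and HF-NP 1 week). Psmb6 was -0.04 in 1 week pools, -0.022 in LF pools, -0.019 with array weights and -0.003 after centring, and -0.049 to 0.039 with 1 pool left out (-0.049, -0.022 and -0.017 without HF-HP 12 weeks, HF-NP 12 weeks and LF-HP 1 week). Psmb10 was 0.1 in 12 week pools and 0.009 in HF pools. With 1 pool left out, Psmd7 for 12 weeks minus 1 week was -0.005 (LF-NP 1 week) to 0.102, Psma8 for protein by fat was -0.372 to 0.001 (HF-NP 12 weeks), and Psma8 for protein by week was -0.342 to 0.062 (HF-NP 12 weeks; 0.039 without LF-HP 1 week). The cause of these turns was not tested. Psmb9 passed with array weights (adjusted p = 0.0482), and with fewer genes tested (genes above the median level) Psmb8 and Psmb9 passed (0.0343 and 0.0389).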
